A study of Mus musculus with 9 samples.

Results

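SWI/SNF complexes use ATP to slide and evict nucleosomes and so open chromatin at regulatory DNA. BRG1, encoded by *Smarca4*, is a catalytic ATPase of these complexes, and PBRM1 (BAF180) is a bromodomain subunit found in the PBAF form. In a differentiated cell many tissue-restricted genes lie in closed chromatin, where promoters poor in CpG dinucleotides are often methylated and silent, whereas promoters within CpG islands are open in most cell types. The genes described here are those at whose promoters neither protein was called in oviductal smooth muscle cells.

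Of 19679 protein-coding genes of GENCODE M21 on chromosomes 1 to 19, with olfactory receptor genes (Olfr symbols) left out, 4959 had no summit of the pooled PBRM1 list and no summit of the pooled BRG1 list within 2 kb of any of their transcript starts. That is 25.2% of the genes, and it is the background share for each family below. A further 13528 genes had a summit of both proteins at the promoter, 401 had a PBRM1 summit only and 791 had a BRG1 summit only. Taken singly, 5750 genes (29.2%) had no PBRM1 summit and 5360 (27.2%) no BRG1 summit. The members were chosen by the summit positions of the pooled lists, so their lack of a promoter summit is a description and was not tested. It means that no peak was called at this depth, not that the proteins were absent.

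The cells, taken from oviducts of wild-type mice aged 8 to 12 weeks on day 2 of pregnancy, were primary smooth muscle cells plated after digestion of the tissue. Chromatin immunocleavage sequencing (ChIC-Seq), which cuts DNA beside an antibody-bound protein with a tethered nuclease, was done in 3 libraries with anti-PBRM1 and 3 with anti-BRG1. The labels state 50000 cells per library and do not say whether the 3 libraries of an antibody came from separate animals, so spread between them may be technical. The 3 IgG control samples were not analysed here. Replicate libraries held 18126049 to 23992352 fragments for PBRM1 and 14284532 to 15897724 for BRG1, so every PBRM1 library was deeper than every BRG1 library. Replicate lists held 31970 to 39467 peaks, and the pooled lists held 94612 PBRM1 and 96166 BRG1 peaks, called without a control library.

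The promoters below are shown for the range of CpG content among the members, most of which were CpG-poor. The first 5 are the members farthest from any pooled summit in the hepatocyte, T and natural killer (NK) cell, spermatogenic, oocyte and epidermis marker lists. The next 3 are members with among the highest CpG ratios, and the last is *Cnn1*, the only smooth muscle marker of the list that lacked both proteins. Each is the RefSeq sequence on GRCm38.p6 from 250 bp before to 50 bp after the annotated start, written 5′ to 3′ on the gene's strand, with CG dinucleotides and TATAAA, on either strand, in capitals.
Cyp3a11: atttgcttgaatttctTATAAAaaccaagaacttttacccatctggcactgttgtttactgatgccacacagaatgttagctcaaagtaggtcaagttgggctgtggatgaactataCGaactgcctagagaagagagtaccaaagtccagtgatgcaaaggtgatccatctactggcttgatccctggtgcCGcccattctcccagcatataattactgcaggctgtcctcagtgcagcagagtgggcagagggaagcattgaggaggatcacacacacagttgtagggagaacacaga
Ncr1: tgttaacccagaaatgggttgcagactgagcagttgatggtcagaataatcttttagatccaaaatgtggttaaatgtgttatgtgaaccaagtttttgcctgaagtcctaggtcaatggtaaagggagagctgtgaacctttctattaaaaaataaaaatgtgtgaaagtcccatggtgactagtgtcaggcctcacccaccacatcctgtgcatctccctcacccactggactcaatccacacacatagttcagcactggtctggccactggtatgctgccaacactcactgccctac
Pgk2: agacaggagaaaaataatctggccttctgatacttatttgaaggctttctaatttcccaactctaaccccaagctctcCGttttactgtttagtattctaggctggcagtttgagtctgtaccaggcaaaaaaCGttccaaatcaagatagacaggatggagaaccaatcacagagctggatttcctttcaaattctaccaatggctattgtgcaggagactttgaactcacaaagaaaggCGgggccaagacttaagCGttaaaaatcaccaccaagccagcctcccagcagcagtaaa
Nlrp5: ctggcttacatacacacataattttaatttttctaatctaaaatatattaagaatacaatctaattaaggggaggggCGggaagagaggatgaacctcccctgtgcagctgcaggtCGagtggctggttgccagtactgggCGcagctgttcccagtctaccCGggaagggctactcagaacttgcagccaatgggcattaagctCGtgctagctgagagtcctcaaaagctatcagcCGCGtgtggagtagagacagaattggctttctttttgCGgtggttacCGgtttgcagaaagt
Flg2: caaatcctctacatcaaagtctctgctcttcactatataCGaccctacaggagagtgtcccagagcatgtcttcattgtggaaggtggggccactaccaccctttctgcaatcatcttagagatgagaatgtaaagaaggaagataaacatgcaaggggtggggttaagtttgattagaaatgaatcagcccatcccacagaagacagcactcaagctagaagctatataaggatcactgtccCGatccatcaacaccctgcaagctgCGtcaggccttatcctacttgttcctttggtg
Pou4f1: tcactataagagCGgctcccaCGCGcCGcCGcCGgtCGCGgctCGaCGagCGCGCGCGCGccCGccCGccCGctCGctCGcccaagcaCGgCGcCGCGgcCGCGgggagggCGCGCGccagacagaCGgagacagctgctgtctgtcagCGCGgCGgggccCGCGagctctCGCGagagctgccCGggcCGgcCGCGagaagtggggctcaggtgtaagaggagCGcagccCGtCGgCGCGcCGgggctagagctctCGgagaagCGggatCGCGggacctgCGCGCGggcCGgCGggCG
Reln: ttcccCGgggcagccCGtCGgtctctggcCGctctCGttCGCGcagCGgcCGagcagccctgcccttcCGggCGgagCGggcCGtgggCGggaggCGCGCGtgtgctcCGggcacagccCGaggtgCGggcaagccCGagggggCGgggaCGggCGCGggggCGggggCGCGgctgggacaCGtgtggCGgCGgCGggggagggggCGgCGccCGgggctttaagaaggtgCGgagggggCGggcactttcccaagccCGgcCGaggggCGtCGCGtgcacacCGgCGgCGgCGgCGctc
Cabp7: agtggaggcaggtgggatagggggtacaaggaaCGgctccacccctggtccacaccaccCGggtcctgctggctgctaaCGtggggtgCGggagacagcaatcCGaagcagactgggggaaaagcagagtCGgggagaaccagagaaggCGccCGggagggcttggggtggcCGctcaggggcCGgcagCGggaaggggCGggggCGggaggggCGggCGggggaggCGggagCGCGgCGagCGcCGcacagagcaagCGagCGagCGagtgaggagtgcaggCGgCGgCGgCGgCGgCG
Cnn1: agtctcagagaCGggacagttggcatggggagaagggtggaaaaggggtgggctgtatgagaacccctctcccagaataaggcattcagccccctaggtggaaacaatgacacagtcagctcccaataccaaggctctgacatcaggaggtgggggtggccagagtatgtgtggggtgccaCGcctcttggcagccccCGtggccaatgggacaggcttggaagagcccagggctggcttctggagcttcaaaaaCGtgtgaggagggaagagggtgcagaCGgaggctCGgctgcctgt

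*Cyp3a11* encodes a liver cytochrome P450, and its window (chr5:145879805-145880104, minus strand) held 2 CG dinucleotides and 1 TATAAA, near the 5′ end of the window. *Ncr1* encodes the NK cell receptor NKp46, and its window (chr7:4337474-4337773, plus strand) held 0 CG. *Pgk2* is the sperm phosphoglycerate kinase (chr17:40208560-40208859, minus strand, 4 CG), *Nlrp5* a maternal-effect gene of the oocyte (chr7:23385639-23385938, plus strand, 9 CG) and *Flg2* a filaggrin-related gene of the epidermis (chr3:93197023-93197322, plus strand, 3 CG). By contrast *Pou4f1*, a transcription factor of sensory neurons (chr14:104467950-104468249, minus strand), held 57 CG in the same length, *Reln*, which encodes the neuronal guidance protein reelin (chr5:22344656-22344955, minus strand), held 47, and *Cabp7*, a calcium-binding protein gene (chr11:4747130-4747429, minus strand), held 30. The smooth muscle calponin gene *Cnn1* (chr9:22099003-22099302, plus strand) held 6. The RefSeq start lay 0 to 5 bp from the GENCODE gene start for *Ncr1*, *Nlrp5*, *Flg2*, *Pou4f1* and *Reln*, and 31, 37, 110 and 401 bp from it for *Pgk2*, *Cnn1*, *Cyp3a11* and *Cabp7*. RefSeq promoters were matched by symbol for 3449 of the 4828 members on chromosomes other than 18.

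The members differed from the other 14720 genes in promoter sequence, a property that the rule did not use. The CpG observed/expected ratio, taken over 500 bp on either side of the gene start, had a median of 0.18 in members (quartiles 0.11 and 0.31) and 0.69 in the other genes (quartiles 0.49 and 0.82). A ratio of at least 0.6 was found at 309 members (6.23%) and at 9510 other genes (64.6%). The share of genes lacking both proteins fell from 84.6% of 1165 genes with a ratio under 0.1 to 50.0% of those from 0.2 to 0.3, 9.58% from 0.5 to 0.6 and 1.70% of 4407 genes at 0.8 or more. Low CpG content did not fix membership, since of 2526 genes with a ratio of 0.1 to 0.2 only 1725 lacked both. TATAAA began 40 to 20 bp upstream of the start at 286 members (5.77%) and 193 other genes (1.31%), against 2.43% of all genes. On either strand (as TATAAA or TTTATA, neither of which can overlap CG) and anywhere in the window of 300 bp it was found at 21.2% of members, 8.28% of the other genes and 11.5% of all genes.

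**Figure D1:**
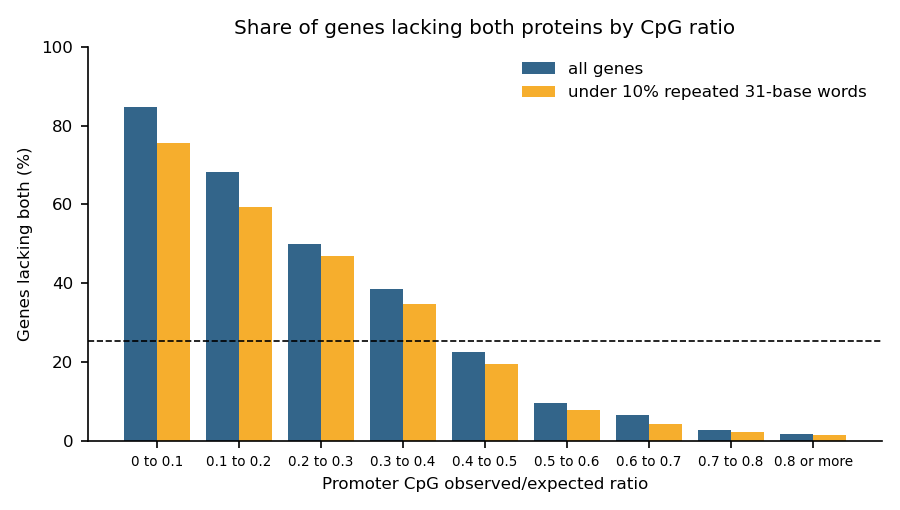
Share of genes lacking both proteins (y axis, %) by CpG observed/expected ratio within 500 bp of the gene start (x axis), for all genes (blue) and for genes in which under 10% of 31-base words of that window recur in the genome (yellow); the dashed line marks the share over all genes, 25.2%. The share falls from 84.6% to 1.70% in all genes and from 75.6% to 1.44% in the second set.

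Repeated sequence moved with membership as well. Reads that fit several places are often discarded in alignment, and the handling of such reads is not given in the sources used here. A 31-base word was called repeated when it occurred more than once in the genome on either strand. At 994 members (20.04%) and 161 other genes (1.09%), at least 50% of the words in the promoter window were repeated, and 86.1% of these 1155 genes lacked both proteins. Among the 16511 genes with under 10% repeated words, 18.2% lacked both proteins, and the median CpG ratio was 0.22 in the 2998 members and 0.70 in the other 13513. The share lacking both fell with CpG ratio in these genes as well. The part of repeated sequence in the families below was not tested, and its value is given beside several of them.

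Members were mostly far from any site of either protein. The nearest summit of either pooled list lay at a median of 21.7 kb from a start (quartiles 6.24 and 109.5 kb), with 3201 members (64.5%) over 10 kb, 1306 (26.3%) over 100 kb and 159 over 1 Mb away. The farthest was *Gm2888* on chromosome 14 at 3079 kb, followed by *Gm2897* at 3060 kb and *Gm10340* at 2975 kb, predicted genes whose promoter windows were 64.6% to 93.6% repeated words. At the other end, 20 members had their nearest summit up to 50 bp beyond the threshold of 2 kb, and 17 genes outside the group had theirs up to 50 bp short of it. *Ucp3*, *Odf1*, *Ankrd31* and *Bmp8b* were just inside the group at 2003, 2027, 2035 and 2044 bp, and *Akap6*, *Ren1*, *Lin28a* and *Nr2f1* just outside it at 1993, 1970, 1965 and 1951 bp.

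**Figure D2:**
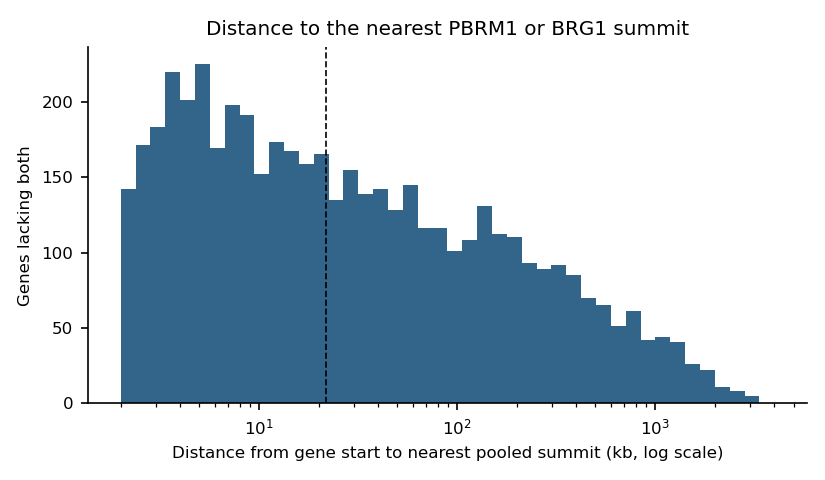
Number of genes lacking both proteins (y axis) by distance from the closest transcript start to the nearest pooled PBRM1 or BRG1 summit (x axis, kb, log scale); the dashed line is the median, 21.7 kb. The distances run from 2 kb, where the rule begins, to 3079 kb.

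Replicate lists, which the rule did not use but whose fragments make up the pooled lists, placed few summits at these promoters. A summit within 2 kb was found at 11, 17 and 9 members in PBRM1 replicates 1, 2 and 3 and at 22, 19 and 36 members in BRG1 replicates 1, 2 and 3, beside 10896 to 12306 genes of the whole set per library. In all, 4855 of 4959 members had none in any of the 6 lists 98 had one in a single list and 4 had one in 2 lists. *Syt4* had one in 3 lists and *Plxdc1* in 5. *Plxdc1*, a plexin domain gene of vessels, had its nearest summit at 1.52, 1.45 and 1.36 kb in the PBRM1 libraries and at 2.28, 1.34 and 1.43 kb in the BRG1 libraries, and at 2.26 and 2.27 kb in the pooled lists. *Syt4*, a synaptotagmin gene, had one at 0.11 kb in PBRM1 replicate 3 and at 0.44 and 0.26 kb in BRG1 replicates 2 and 3, while the pooled summits were at 5.72 and 5.77 kb. A further measure of the edge was that 82 members had some part of a pooled peak, but not its summit, within 2 kb.

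Families and lineages were then counted with 85 lists of symbols, which place 2553 of the 4959 members in at least one list. The share lacking both proteins exceeded 25.2% in 53 of 56 gene families and in 21 of 25 lineage marker lists, contrast lists aside. The 56 include the groups of predicted and RIKEN clone genes. Many lists hold tissue-restricted genes. They were drawn up with earlier results of these data known, and some symbol patterns were corrected after the files were read. The count therefore describes the lists chosen and is no test. The background share was not matched for CpG ratio. Of all genes with a ratio of 0.1 to 0.2, 68.3% lacked both, against 1.70% at 0.8 or more. The part of CpG content in the family shares was not tested. The families are described from sensory receptors through barrier, immune, metabolic, secreted and germline genes to those near or below the background, and most members named with a distance are among the 4 of their list farthest from a summit. Genes named for having a summit in a list were picked after their values were seen.

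**Figure D3:**
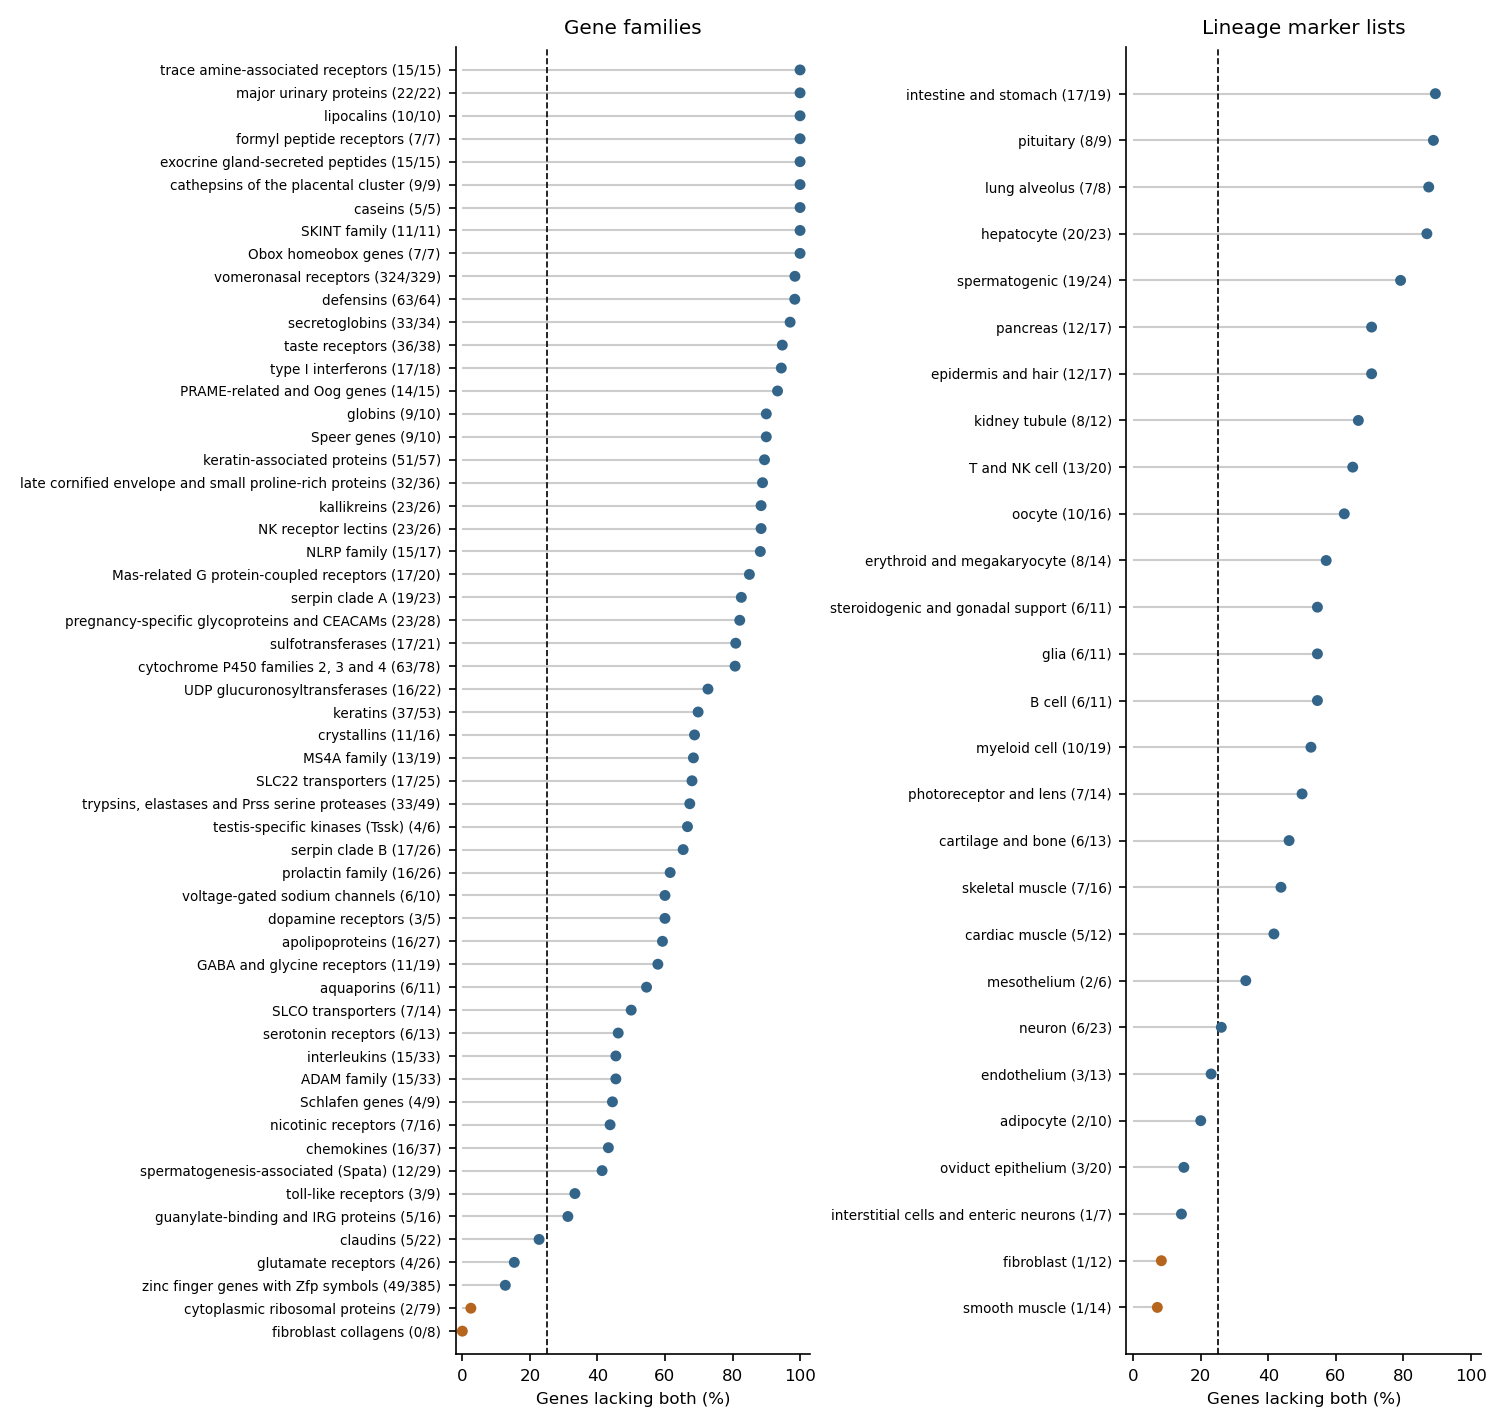
Percent of genes lacking both proteins at the promoter (x axis) for each gene family (left) and lineage marker list (right), with the number lacking both and the number measured in parentheses. Predicted and RIKEN clone genes are not drawn, orange points are contrast lists and the dashed line marks the share over all genes, 25.2%: sensory and secreted families reach 100%, and the smooth muscle, fibroblast, collagen and ribosomal lists lie under 10%.

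Chemosensory receptors, expressed in specialised sensory cells, lacked both proteins almost throughout. Of 329 vomeronasal receptor genes, which detect pheromones, 324 (98.5%) lacked both, with a median of 210.1 kb to the nearest summit, and *Vmn1r138* and *Vmn1r137* were 2053 and 2038 kb from one. The windows of both genes were made up wholly of repeated words (100%), and at 115 of the 324 genes at least 50% of the words were repeated. The 5 vomeronasal receptors with a summit were *Vmn1r4*, *Vmn1r40*, *Vmn1r42*, *Vmn1r43* and *Vmn1r210*. All 15 trace amine-associated receptors, which sense volatile amines, lacked both at a median of 17.9 kb. All 7 formyl peptide receptors, some of which serve leukocytes, also lacked both, at 111.6 kb. Among taste receptors 36 of 38 lacked both at a median of 196.4 kb, the exceptions being *Tas1r1* and *Tas2r126*, and their windows held a median of 0% repeated words. Mas-related receptors of itch and pain neurons lacked both at 17 of 20 genes. The left-out olfactory receptors, counted only for comparison, lacked both at 1101 of 1128 genes (97.6%).

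Barrier and skin families followed. Hair keratin-associated proteins lacked both at 51 of 57 genes (89.5%), late cornified envelope and small proline-rich proteins at 32 of 36 (88.9%) and keratins, the epithelial intermediate filaments, at 37 of 53 (69.8%). *Krt5* of basal keratinocytes was 59.9 kb from a summit and *Krt6b* of stressed epidermis 92.5 kb, and the 16 keratins with a promoter summit included *Krt8* and *Krt18* of simple epithelia as well as *Krt1* and *Krt10* of the epidermis. Defensins, antimicrobial peptides of gut and skin, lacked both at 63 of 64 genes at a median of 174.4 kb, and 23 of the 63 had at least 50% repeated words. In the epidermis and hair marker list 12 of 17 genes lacked both, with filaggrin (*Flg*) at 152.3 kb and *Flg2* at 171.8 kb.

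Immune families were mixed. NK receptor lectins lacked both at 23 of 26 genes (88.5%), with *Klra1* 765.3 kb and *Klra3* 727.4 kb from a summit, and type I interferons at 17 of 18, the exception being *Ifnb1*. Chemokines, by contrast, lacked both at 16 of 37 (43.2%). *Ccl21b*, a lymph node chemokine, was 481.1 kb from a summit but 100% of its promoter words were repeated. The 21 with a summit included *Ccl2*, *Cxcl1* and *Cxcl12*, made by many stromal cells, and also *Xcl1* and *Ccl3*, made by leukocytes. Interleukins lacked both at 15 of 33, toll-like receptors at 3 of 9 (*Tlr6*, *Tlr9* and *Tlr11*) and interferon-induced GTPases at 5 of 16, where 2 of the 5 had at least 50% repeated words. Among leukocyte marker lists the share was 13 of 20 for T and NK cells, 6 of 11 for B cells and 10 of 19 for myeloid cells. *Ncr1*, *Gzma* (granzyme A) and *Cd8b1* lay 89.5, 54.5 and 43.0 kb from a summit, and the macrophage marker *Adgre1* (F4/80) 22.8 kb. *Lck*, *Zap70*, *Spi1* and *Csf1r* of the same lists had a promoter summit.

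Genes of detoxification and plasma proteins formed another large block. Cytochrome P450 families 2, 3 and 4, which oxidise drugs and fatty acids, lacked both at 63 of 78 genes (80.8%) at a median of 117.9 kb, led by *Cyp2c67* at 554.1 kb and *Cyp2c39* at 537.1 kb, and 13 of the 63 had at least 50% repeated words. Sulfotransferases lacked both at 17 of 21 genes, UDP glucuronosyltransferases at 16 of 22 and clade A serpins, secreted protease inhibitors, at 19 of 23. Of the hepatocyte markers 20 of 23 lacked both. *Cyp3a11*, *Serpina1a* (alpha-1 antitrypsin), *Cps1* of the urea cycle and *Cyp2e1* were 341.0, 131.8, 73.1 and 57.7 kb from a summit, and only *Afp*, *Apoa1* and *Apoh* of that list had one. In the 6 libraries the nearest summit to *Cyp3a11* lay between 341.0 and 341.5 kb, with no library apart from the others.

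Secreted products of glands and of the placenta were lacking in whole families. Each of the 22 major urinary proteins, 15 exocrine gland-secreted peptides, 10 lipocalins, 5 caseins and 9 placental cathepsins lacked both proteins. The same held for the 11 SKINT genes, which encode membrane proteins of skin and thymic epithelium. Secretoglobins of airway and glands lacked both at 33 of 34 genes at a median of 603.3 kb, with *Scgb1c1* the exception, and kallikreins at 23 of 26. Repeated words made up at least 50% of the window at 17 of the 22 major urinary protein genes and 18 of the 33 secretoglobin genes, but at none of the lipocalins or caseins, whose medians were 0%. *Csn3* (kappa casein) was 300.2 kb and *Csn2* (beta casein) 71.2 kb from a summit. Pregnancy-specific glycoproteins and CEACAMs lacked both at 23 of 28 genes. The prolactin family, hormones of pituitary and placenta, was divided, with 16 of 26 lacking both at a median of only 8.78 kb.

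Germline genes were also frequent. Of the spermatogenic markers 19 of 24 lacked both, with *Pgk2*, *Tnp1* (transition protein 1) and *H1fnt* (a spermatid linker histone) at 360.7, 45.9 and 38.7 kb, while *Dazl*, *Dmc1*, *Spo11*, *Sycp3* and *Zpbp* had a summit. Of the oocyte markers 10 of 16 lacked both, including *Nlrp5* at 663.9 kb, *Oosp1* at 65.97 kb and the zona pellucida gene *Zp2* at 13.7 kb. The oocyte and embryo Obox homeobox genes (7 of 7), PRAME-related and Oog genes (14 of 15) and the NLRP family (15 of 17) were lacking nearly throughout, with at least 50% repeated words at 3 of the 7, 5 of the 14 and 1 of the 15 lacking genes, while Spata genes were at 12 of 29. Speer genes lacked both at 9 of 10, and 7 of the 9 had at least 50% repeated words. Cytoplasmic ribosomal protein genes, active in every cell and listed for contrast, lacked both at 2 of 79, and these were the tissue-restricted copies *Rpl10l* (testis) and *Rpl3l* (striated muscle), 297.0 and 3.38 kb from a summit.

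Neuronal lists ranged from below the background share to above it. Neuron markers lacked both at 6 of 23 genes (26.1%), near the 25.2% of all genes, and glutamate receptors at 4 of 26 (15.4%), among them *Gria1*. GABA and glycine receptors lacked both at 11 of 19, voltage-gated sodium channels at 6 of 10, dopamine receptors at 3 of 5 (*Drd2*, *Drd3* and *Drd5*) and serotonin receptors at 6 of 13. Zinc finger genes with Zfp symbols lacked both at 49 of 385 (12.7%), and 31 of these 49 had at least 50% repeated words. The 49 had a median CpG ratio of 0.30. Predicted genes with Gm numbers, which carry no assigned name, made up 918 members out of 1226 such genes (74.9%), and 496 of the 918 had at least 50% repeated words.

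Marker lists for cells of the oviduct wall ranged from 1 lacking gene of 14 to 2 of 6. Of 14 smooth muscle markers 13 had a promoter summit (*Acta2*, *Actg2*, *Myh11*, *Tagln*, *Des* and others) and only *Cnn1* lacked both. All 8 fibroblast collagens and 11 of 12 fibroblast markers had one. Support in the replicate lists varied, with a promoter summit in 6 lists for *Acta2*, 4 for *Des* and 1 each for *Actg2* and *Col1a1*. The labelled cell type thus had pooled summits at most of its listed markers, but oviduct epithelium markers had them too, lacking both at 3 of 20 genes (*Ehf*, *Ovgp1* and *Dnah5*). Endothelial markers, near the background share, lacked both at 3 of 13 (23.1%, *Cdh5*, *Sox18* and *Tie1*) and adipocyte markers at 2 of 10 (*Cidec* and *Retn*). Mesothelial markers lacked both at 2 of 6 (*Msln* and *Upk3b*), too few genes to set apart from the background share. A summit at a promoter was not a measure of expression, and the cell makeup of the libraries was not tested.

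Distances to the nearest site varied among the members of these lists. For *Cnn1* the nearest summit was at 3.02, 3.00 and 3.02 kb in PBRM1 replicates 1, 2 and 3 and at 3.14, 3.02 and 3.13 kb in the BRG1 replicates, so each of the 6 libraries had a site just outside the window. *Msln*, the mesothelin gene, had one at 2.50 to 2.94 kb in every library. *Ovgp1*, which encodes oviductal glycoprotein of the secretory epithelium, had its nearest summit at 13.9 to 14.6 kb in all 6. *Ehf*, an epithelial ETS factor, had pooled summits at 2.86 and 2.91 kb, whereas in the single libraries the nearest was at 64.7 to 181.9 kb. The small leucine-rich proteoglycan gene *Lum* was 8.91 and 8.59 kb from a pooled summit and 8.65 to 85.5 kb from one in single libraries.

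Many members were neighbours along the chromosomes. Runs were not counted for other genes or for a shuffled order, so clustering was not tested. Counted in the order of protein-coding genes without Olfr symbols, 169 runs of 5 or more neighbouring members held 2116 members (42.7%). The longest was 105 genes over 4.10 Mb of chromosome 7 (chr7:19965412-24063554, *Ceacam20* to *Vmn1r183*), mostly vomeronasal receptors with *Nlrp5*, *Nlrp4e* and *Nlrp9b*, and it held 0 summits of either pooled list. A run of 65 predicted and clone-named genes covered 3.06 Mb of chromosome 14 (chr14:3030002-6093942), also with 0 summits. Its genes *Gm2888*, *Gm2897* and *Gm10340* had 93.6%, 64.6% and 87.6% repeated words. At least 50% of the words were repeated at 115 of the 324 vomeronasal receptor genes lacking both. Repeated sequence over whole runs was not measured. The defensin cluster on chromosome 8 held 64 members in 3.00 Mb, with 4 PBRM1 and 12 BRG1 summits. The next runs were 58 genes on chromosome 14 (*Mat1a* to *Ear1*, including the surfactant genes *Sftpa1* and *Sftpd*), 38 on chromosome 17 (*Has1* to *Vmn1r232*) and 35 on chromosome 4 (*Oog4* to *Gm438*). A run of 31 genes on chromosome 5 took in UDP glucuronosyltransferases, the caseins and *Jchain*. By chromosome, the share lacking both was highest on 14 (39.6%), 7 (35.6%) and 6 (31.4%) and lowest on 12 (18.2%), 9 (18.7%) and 11 (19.4%).

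Binding within the gene body was next described, as summits inside the gene's span but more than 2 kb from its own starts. In the pooled lists 994 members (20.04%) had such a summit of either protein, beside 54.9% of the other genes and 46.1% of all genes. With a membership window of 5 kb the share in members was 13.3%. Of the 994, 677 had summits of both proteins, 153 of PBRM1 only and 164 of BRG1 only. Of the 8086 other genes with a body summit, 6330 had summits of both, 879 of PBRM1 only and 877 of BRG1 only. Flanking summits lay outside the span but within 10 kb of it, and also more than 2 kb from the gene's own starts. They were found at 1930 members (38.9%), beside 73.9% of the other genes and 65.1% of all genes. In total 2696 members (54.4%) had neither, against 11.7% of the other genes.

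Members were shorter, with a median span of 8.95 kb against 24.4 kb, and 48.2% of them against 12.7% had a single annotated start. Within classes of length the order held in each class. A body summit was found at 6.67% of 2640 members and 9.0% of 3656 other genes under 10 kb, at 28.0% and 55.4% from 10 to 50 kb, at 52.8% and 92.8% from 50 to 200 kb, and at 81.2% of 112 members and 98.3% of 841 other genes of 200 kb or more. The number of starts also bears on membership by the rule itself, since each start adds a window. Of genes with 1 start 56.2% lacked both, and of genes with 5 or more 6.05%.

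**Figure D4:**
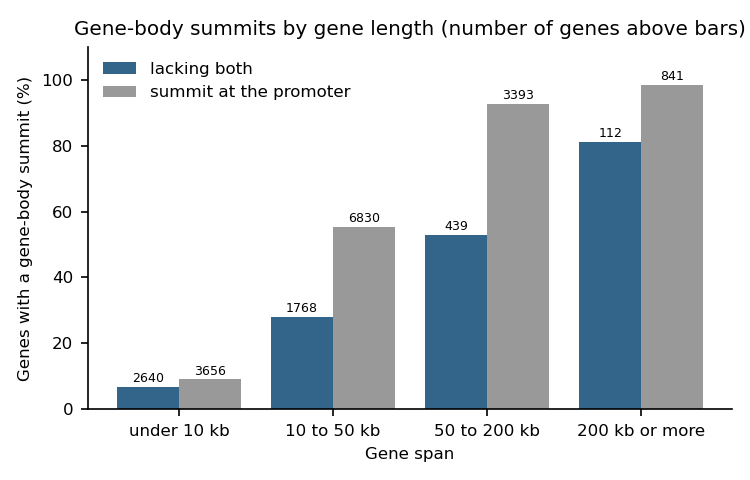
Percent of genes with a pooled summit of either protein in the gene body more than 2 kb from the gene's own starts (y axis) by gene span (x axis), for genes lacking both proteins at the promoter (blue) and genes with a promoter summit (grey), with the number of genes above each bar. The blue bars rise from 6.67% to 81.2% and the grey bars from 9.0% to 98.3%.

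By library, the percent of members with a body summit was 9.05, 8.01 and 8.95 in PBRM1 replicates 1, 2 and 3 and 9.22, 8.27 and 8.59 in the BRG1 replicates. The antibodies overlapped, with means of 8.67 ± 0.58 and 8.69 ± 0.48 (SD, n = 3), a PBRM1 minus BRG1 difference of -0.020 percentage points and p = 1.0 by a 2-sided exact permutation test. When each list was cut to its 31970 strongest peaks the sign turned and the antibodies no longer overlapped (0.47 percentage points for body summits and 0.54 for flanking summits, each p = 0.1 by the exact permutation test). For flanking summits the values were 21.4, 19.5 and 21.4% for PBRM1 and 21.98, 19.7 and 21.1% for BRG1. Their means, 20.8 ± 1.1 and 20.9 ± 1.1 (SD, n = 3), differed by -0.17 percentage points (p = 0.9, exact permutation test). With 3 libraries against 3 the smallest p this test allows is 0.1, so no difference between antibodies could pass 0.05. The PBRM1 libraries were all deeper than the BRG1 libraries, and the part of depth in these comparisons was not tested.

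The density of summits in gene bodies was compared over sequence more than 2 kb from every annotated start of any gene. Sequence shared by the span of a member and the span of one of the other genes was left out. What remained came to 113.8 Mb in members and 706.4 Mb in the other genes. Members held 4.57, 3.64 and 4.62 summits per Mb in the PBRM1 libraries and 4.59, 4.17 and 4.23 in the BRG1 libraries, while the other genes held 11.5 to 14.6. The ratio of the densities was 0.31 to 0.32 in all 6 libraries, with a mean of 0.32 ± 0.0058 (SD over 6 libraries, both antibodies together). The members were chosen by lists pooled from these same libraries, so the difference between members and other genes is a description and was not tested. Repeated sequence within gene bodies was not measured. Between antibodies the densities in members were 4.28 ± 0.55 and 4.33 ± 0.22 per Mb (SD, n = 3) and differed by -0.053 (p = 0.9, exact permutation test), and by 0.37, without overlap, with equal numbers of strongest peaks (p = 0.1, exact permutation test).

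**Figure D5:**
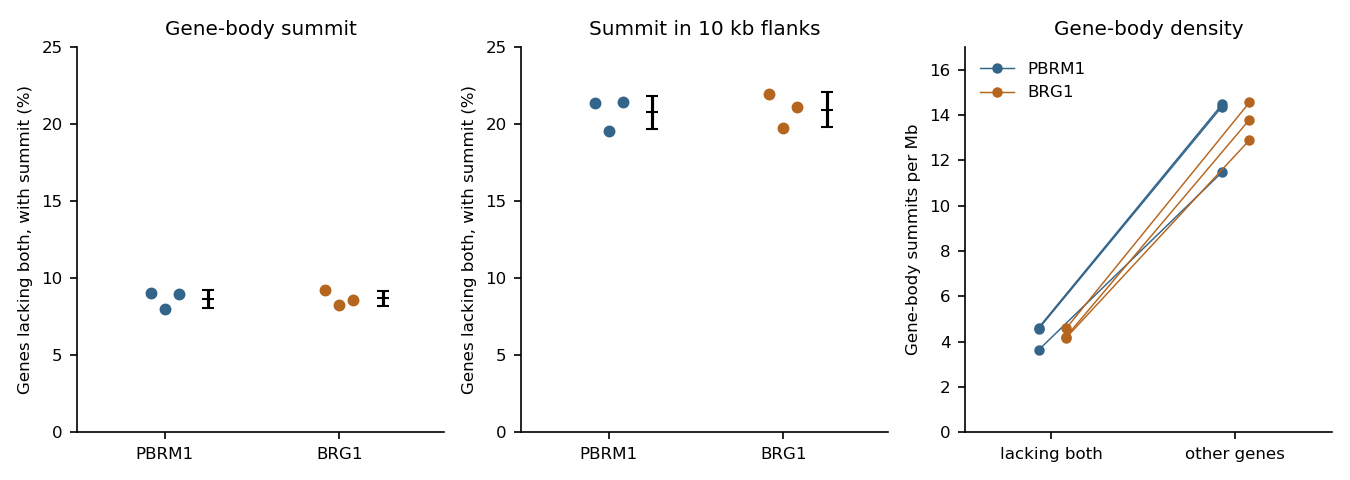
Percent of genes lacking both proteins with a gene-body summit (left) or a summit in the 10 kb flanks (middle) in each library, with mean and SD beside the 3 points of each antibody, and gene-body summits per Mb in genes lacking both and in other genes (right), with a line per library. PBRM1 and BRG1 points overlap in each panel, and every line rises from 3.64 to 4.62 per Mb to 11.5 to 14.6 per Mb. Summits in the left and middle panels lie more than 2 kb from the gene's own starts. The right panel leaves out sequence shared by genes of both kinds.

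The strength of the pooled summits inside member bodies depended on the measure and on what it was set beside. There were 1945 distinct PBRM1 and 1924 BRG1 summits, with a median fold enrichment over local background of 3.45 and 3.73, beside 3.29 and 3.65 for all peaks of each list. Their median −log10 q was lower than that of all peaks, at 5.68 and 5.76 beside 6.25 and 6.37. Over 2 kb from any start, the median fold enrichment was 3.46 and 3.75 in member bodies and 3.14 and 3.46 in other gene bodies. Exons held 12.0% of the PBRM1 and 14.6% of the BRG1 summits. Peaks of the other antibody overlapped 1181 of the PBRM1 peaks (60.7%) and 1208 of the BRG1 peaks (62.8%). A start of another gene lay within 2 kb of 251 and 248 of them. The shares in exons, with overlap and near such starts were not counted over all peaks or other gene bodies. They are therefore not read as particular to members.

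The strongest body summits were mostly at the starts of other genes. In 9 of the 10 members with the highest -log10 q, among them *Smyd1*, *Rag2* and several predicted genes, the summit lay within 2 kb of such a start. *Rag2*, the lymphoid recombinase gene, had 1 body summit in each of the 6 libraries, 79 bp from a start of another gene. The exception was *Fpr3*, whose intron held a peak at chr17:17909853-17910532 with 11.8-fold enrichment for BRG1 and one of 10.4-fold for PBRM1, 2653 and 2644 bp from any start, and which had 1 body summit in each of the 6 libraries. Chosen after their values were seen, intronic BRG1 peaks of *March1*, a ubiquitin ligase gene of antigen-presenting cells (14.1-fold, 20330 bp from any start), and *Iqcj* (11.4-fold, 70108 bp) overlapped peaks in all 6 replicate lists.

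The members with the most body summits were very long. The T cell adaptor gene *Skap1* (294.5 kb) had 21 PBRM1 and 23 BRG1 pooled summits, and 6, 4 and 3 in the PBRM1 libraries and 7, 5 and 5 in the BRG1 libraries. *Arhgap15*, a Rac regulator of blood cells (647.1 kb), had 24 and 14 pooled summits, with 5, 4 and 5 against 8, 7 and 6. *Slc14a2*, a kidney urea transporter gene (450.8 kb), had 25 and 28 pooled summits. The glutamate receptor gene *Gria1* held 12 PBRM1 and 18 BRG1 summits. The separate entries named *Arhgap26* and *Atp5o* that lacked both were extra gene models of symbols whose other entry had a promoter summit, which held for 4 of the members. The spans of 529 members (10.7%) overlapped a gene that had a promoter summit.

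A small set of members had promoters rich in CpG. The 10 highest ratios, 0.95 to 1.05, belonged to *Paqr9*, *Pou4f1*, *Reln*, *Gpr27*, *BC107364*, *Zyg11a*, *Dchs1*, *Cabp7*, *Ajap1* and *Rbmxl2*, and only in *BC107364* (100%) were over 10% of the words repeated. *Reln* spans 460.2 kb and had no body summit in either pooled list. Its nearest summit in single libraries was at 107.0 to 107.2 kb in all 6, and a pooled BRG1 summit lay at 28.2 kb. *Paqr9*, a progestin receptor-like gene, had its nearest summit at 12.7, 12.9 and 13.0 kb in the PBRM1 libraries and at 47.65 to 47.675 kb in the BRG1 libraries, while the pooled lists had a PBRM1 summit at 12.95 kb and a BRG1 summit at 18.84 kb. *Gpr27*, an orphan receptor of the brain, lay 26.005 kb from a summit and *Rbmxl2*, a testis copy of an RNA-binding gene, 162.0 kb. *Dchs1*, a large cadherin, was 3.02 kb from one and had 2 PBRM1 and 2 BRG1 body summits. At the other end, *Crisp3*, *Chil6*, *Cst13*, *Adam39* and *5530400C23Rik* had no CpG within 500 bp of the start (ratio 0).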

How the data were processed

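Members and gene lists were chosen with earlier results of these data known, and some symbol patterns of the lists were corrected after the files were read. Per the labels, the authors used cutadapt, Bowtie2 and MACS2 with the build GRCm38.p5, and other steps are not given in the sources used here. Per the file headers, the authors called peaks with MACS 2.2.7.1 from paired fragments, all fragments kept at this step, q cutoff 0.05, effective genome 2300000000 bp, background over 10 kb and no control, in 6 replicate and 2 pooled lists. The deposited pileup is the signal (fragment coverage) at a summit, fold enrichment is its ratio to local background, and q-values are deposited as −log10 q. Without a control, sites cut regardless of the antibody could be called.

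Summits, gene starts (GENCODE M21) and sequence (GRCm38.p6, RefSeq) were joined in Python 3.11.15 with numpy 2.4.6, pandas 2.3.3, scipy 1.17.1 and numba 0.67.0. Libraries were compared by 2-sided exact permutation and scripts tested on simulated data. Alternatives were other windows, peak thresholds and lists, leaving out libraries, and a replicate block. Named genes were, per list, up to 4 members farthest from a summit (all in short or contrast lists), plus the members with the most distant summits, longest runs, most or strongest body summits, extreme CpG ratios, distances at the threshold, and promoter summits in 3 or more replicate lists.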

Additional observations from a re-analysis of the deposited data

How the results depend on the processing

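The number of genes lacking both proteins was within 1.5 times of 4959 under each of the 9 alternatives, from 3989 with a window of 5 kb and 4877 with any base of a peak in the window to 5930 with −log10 q of at least 5. The 5816 genes with no summit in any replicate list became 5908 to 6075 when a library was left out. Their number rose to 7824 with −log10 q of at least 5. The percent of members with a pooled body summit moved from 20.04 to 22.6 with a membership window of 1 kb, 13.3 with 5 kb, 14.6 with −log10 q of at least 5 and 18.5 without summits near starts of other genes. The percent of members with a CpG ratio of at least 0.6 moved from 6.23 to 7.12 in a window of 300 bp and 7.30 with a membership window of 1 kb. The cause of these moves was not tested beyond the change made.

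The PBRM1 minus BRG1 differences changed sign among the alternatives. With equal numbers of the strongest peaks PBRM1 libraries were all above BRG1 libraries, by 0.47 percentage points for body summits, 0.54 for flanking summits and 0.37 per Mb for density, each with exact permutation p = 0.1, the smallest possible. Each PBRM1 library also held more fragments than each BRG1 library, and the part of depth was not tested. With −log10 q of at least 5 the flanking difference was -1.13 (exact permutation p = 0.3). For body summits the difference was 0.036 with a membership window of 1 kb and 0.034 without summits near starts of other genes, and for flanking summits the latter gave 0.56. Leaving out 1 library gave -0.23 to 0.31 for body summits, -0.78 to 0.45 for flanking summits and -0.23 to 0.27 per Mb for density, and the sign turned without PBRM1 replicate 2 (0.31, 0.45 and 0.27) or without BRG1 replicate 1 (0.24, 0.35 and 0.076). Deviations of same-numbered libraries correlated at -0.0033 to -0.0021 over merged peak regions, and those of different-numbered libraries at -0.0012 to 0.0041. The calls thus showed no pairing by number, but they cannot tell whether same-numbered libraries shared animals or a preparation. The replicate block left the differences at -0.020, -0.17 and -0.053 (p = 1.0, 0.75 and 0.75 by exact sign flips, smallest possible p 0.25). Depth limits the calls: replicate lists held 31970 to 39467 peaks and pooled lists 94612 and 96166, so lack of a summit is lack of a call.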

Other observations

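On the X chromosome, which the rule left out, 501 of 941 protein-coding genes (53.2%) had no pooled summit of either protein within 2 kb of a start, beside 25.2% on chromosomes 1 to 19. No cause was tested.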
